A study of Mus musculus with 16 samples.

Results

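The genes described are Ch25h, Cyp7b1, Nr1h2, Nr1h3, Abca1, Abcg1, Mylip, Srebf1 and Abca8a, which are 9 of the 20295 genes in the count table. Ch25h was chosen by its large increase with SR-3420 and Abca8a by its decrease, both selected on these counts. For these 2 genes every value of SR-3420 against no SR-3420 is therefore a description with no test. The other 7 were chosen for their function around the liver X receptors (LXRs). Ch25h encodes cholesterol 25-hydroxylase, which makes the oxysterol 25-hydroxycholesterol, and Cyp7b1 encodes a hydroxylase that clears such oxysterols. Oxysterols bind the nuclear receptors LXRα (Nr1h3) and LXRβ (Nr1h2). These pair with retinoid X receptors and regulate genes of sterol export (Abca1, Abcg1), of lipoprotein receptor turnover (Mylip) and of fatty acid synthesis (Srebf1). Fat cells hold a large pool of free cholesterol in and around the lipid droplet.

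RNA was sequenced from a mouse brown preadipocyte line immortalized with SV40 large T antigen and differentiated in culture to day 7. The compounds were SR-3420, an ABHD5 ligand that sets off breakdown of stored triglyceride, triacsin C (TC), which blocks long-chain acyl-CoA synthetases, and etomoxir (ETO), which blocks carnitine palmitoyltransferase 1 and so fatty acid oxidation. Comparing the response to SR-3420 with and without each inhibitor asks whether it needs fatty acids to be activated to acyl-CoA or taken into mitochondria. Inhibitor or vehicle was given 1 h before a 3 h stimulation, with SR-3420 at 10 µM by the labels (the study's text gives another dose), TC at 5 µM and ETO at 50 µM. Vehicle had 2 samples (10097582 and 14032494 counts), SR-3420 alone 2 (15667121 and 19156037), TC alone 3 (9452861 to 15818919), TC with SR-3420 3 (10659704 to 16265789), ETO alone 3 (10993504 to 14993463) and ETO with SR-3420 3 (13173278 to 25670624). A vehicle replicate 1 and an SR-3420 replicate 2 were not analysed here. The labels number the samples as replicates and the study's text speaks of independent experiments, all with 1 immortalized line, so the tests cover the spread between cultures of that line. Comparisons with vehicle share its 2 samples, and those with SR-3420 alone share those 2.

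Genes that define fat cells were abundant in these libraries. Summed over 8 adipocyte markers, counts scaled to library size (CPM, with TMM) were 22192 to 30490 in vehicle, with Cfd the most abundant. Of the markers of the labelled brown type, Cox8b was the most abundant, at 430 to 2601 counts per sample. Ppargc1a had 207 to 1302 counts, Cidea 100 to 599, Prdm16 77 to 694 and Elovl3 85 to 312, whereas the thermogenic genes Ucp1, at 5 to 57, and Dio2, at 0 to 2, were near absent. Macrophages also express Ch25h and LXR targets. Macrophage markers summed to 10.3 to 27.5 CPM, with Cd68 the most abundant and Emr1 at 0 to 3, C1qa at 0 to 2, C1qb at 0 to 4 and Ptprc at 0 to 16 counts. The part of such cells in the values of the genes described was not tested. Endothelial markers summed to 0.860 to 3.58 CPM, led by Kdr. Preadipocyte and fibroblast markers, led by Col1a1, summed to 1597 to 1849 CPM in vehicle, 1950 to 2562 in TC and 1077 to 2236 in ETO, against 2882 to 3991 in SR-3420, 2992 to 4486 in TC with SR-3420 and 2286 to 4687 in ETO with SR-3420. Adipocyte markers summed to 16032 to 25980 CPM in SR-3420, 8565 to 10338 in TC with SR-3420 and 7732 to 13903 in ETO with SR-3420, against 28718 to 37465 in TC and 20828 to 30738 in ETO. In bulk RNA, fewer cells of a type and less RNA per cell cannot be told apart.

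The deepest library of a group stood apart for some of these genes. It was the highest of its group in 6 of 6 groups for each of Nr1h2, Nr1h3, Abcg1, Mylip and Srebf1, in 4 for Ch25h, 2 for Cyp7b1, 1 for Abca1 and 0 for Abca8a. The highest sample of a group exceeded the lowest by 1.47 to 2.04 times for Nr1h2 and by 1.41 to 1.88 times for Srebf1, but by 1.05 to 1.47 times for Abca1. The deepest library was replicate 2 in vehicle and TC and replicate 1 in each other group, so depth ran with replicate number. The parts of depth and of replicate number in this spread were not tested. Per length (median RPKM over the 16 samples), Srebf1 was the most abundant of the 9 at 276, followed by Nr1h2 at 50.1, Nr1h3 at 37.1, Abca1 at 12.6, Mylip at 12.4, Abcg1 at 12.1, Ch25h at 11.9, Abca8a at 1.19 and Cyp7b1 at 0.0929. Srebf1 overlaps Rai1 on the opposite strand in the mm9 annotation, and because strandedness of the counting is not stated, reads of the shared stretch cannot be told apart.

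Ch25h, the enzyme gene, separated the samples with SR-3420 from those without it. Its CPM were 2.85 and 2.95 in vehicle, 2.90, 3.08 and 2.35 in TC and 1.32, 1.97 and 1.41 in ETO, against 61.3 and 47.7 in SR-3420, 82.0, 62.5 and 68.7 in TC with SR-3420 and 51.7, 41.3 and 29.1 in ETO with SR-3420. Every sample with SR-3420 lay above every sample without it, and its counts ran from 17 in the lowest ETO sample to 1289 in an ETO with SR-3420 sample. By group mean, TC with SR-3420 was highest (71.0) and did not overlap SR-3420 alone (54.5), which overlapped ETO with SR-3420 (40.7). Vehicle (2.90) and TC (2.78) overlapped, and ETO (1.57) lay below both. As a description, the log2 fold change with SR-3420 was 4.23 (SE 0.30, 18.7-fold) without inhibitor, 4.67 (SE 0.25, 25.5-fold) with TC and 4.70 (SE 0.25, 26.0-fold) with ETO. Its response differed from that without inhibitor by 0.45 with TC and by 0.47 with ETO on the log2 scale, again as a description, while a correction for gene span, chosen after seeing the data, gave 5.21 in the TC arm and 1.03 for the difference between that arm and no inhibitor.

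**Figure D1:**
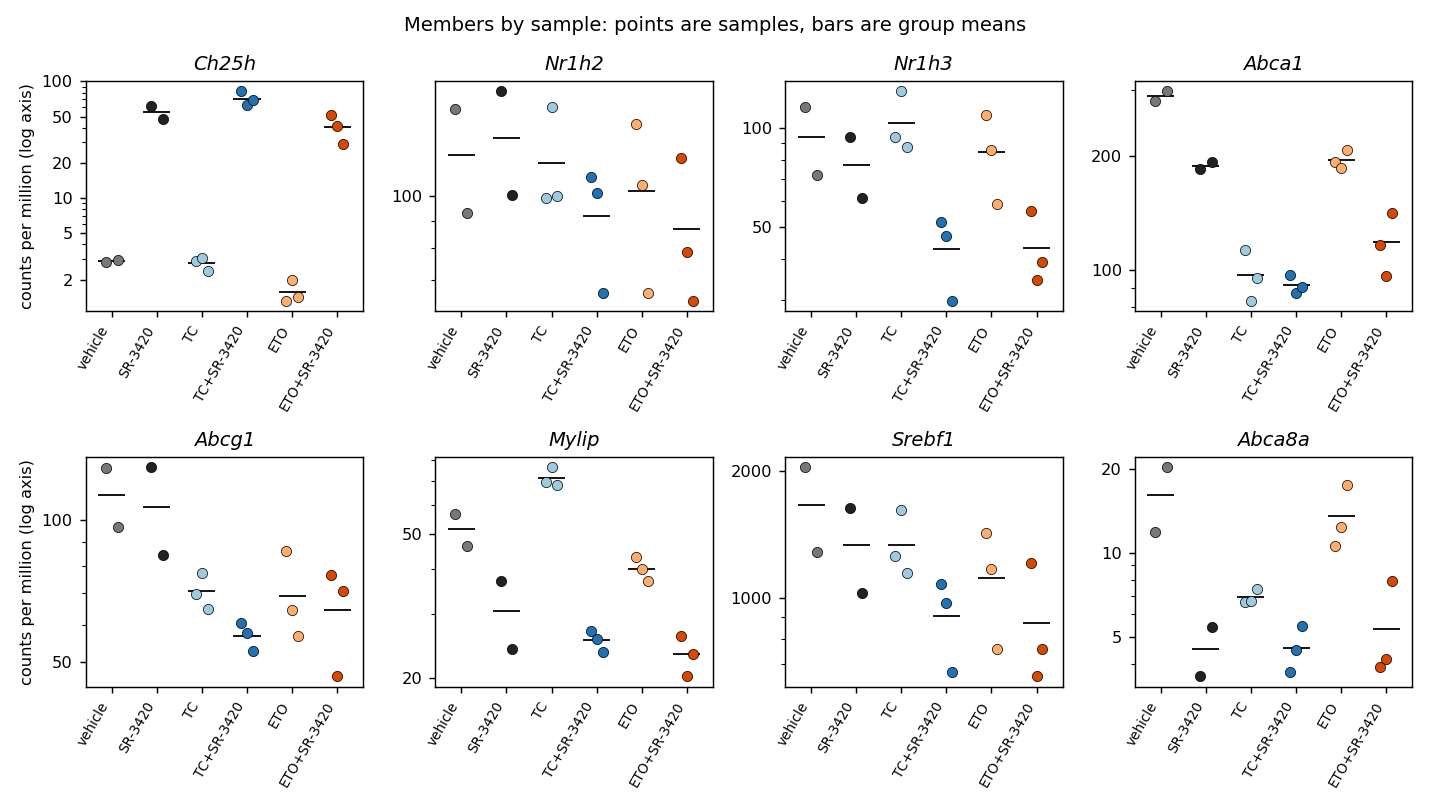
CPM of the 8 tested genes in each of the 16 samples on log axes, with 1 point per sample, columns by group and bars at the group means. Ch25h is above 29 in every sample with SR-3420 and below 4 in every sample without it, and Abca1 is highest in the vehicle samples.

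The Ch25h response to SR-3420 was also compared between the inhibitors. As a description, its responses in the TC and ETO arms differed by −0.03. All comparisons of Ch25h between inhibitors use samples that entered the response by which it was chosen, so their p-values are not free of that choice. The p-values come from edgeR's quasi-likelihood test, Benjamini-Hochberg adjusted over the 12786 genes tested (edgeR QL, BH). Among samples given SR-3420, Ch25h was 0.38 log2 units higher with TC than without (95% interval −0.10 to 0.87, adjusted p = 0.378 by edgeR QL, BH), with all 3 TC samples above both others. With ETO it was −0.42 relative to SR-3420 alone, and the groups overlapped (adjusted p = 0.525 by edgeR QL, BH). Without SR-3420, TC and vehicle differed by −0.06 (adjusted p = 0.931 by edgeR QL, BH) and overlapped, while ETO was −0.89 from vehicle with all 3 ETO samples below both vehicle samples (adjusted p = 1.00 by edgeR QL, BH).

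Set against ETO, a comparison added after the data were seen, TC had higher Ch25h by 0.83 (SE 0.26, adjusted p = 0.0471 by edgeR QL, BH), in all 3 TC samples against all 3 ETO samples. That call held in 3 of 15 alternatives, whose adjusted p ran from 0.0150 to 0.496. Without TC replicate 1, 2 or 3 the adjusted p was 0.106, 0.159 and 0.0584, and without ETO replicate 1 or 3 it was 0.119 and 0.148. It was 0.0559 with DESeq2's size factors, 0.0714 without TMM, 0.0577 with the DESeq2 Wald test, 0.101 without a low-count filter, 0.114 with only the groups compared, 0.0645 with a GC correction and 0.496 with the gene span correction, where the value was 0.33.

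Cyp7b1, which clears oxysterols, had 0 to 11 counts per sample and failed the low-count filter, so it was not tested. It had 3 and 3 counts in vehicle, 5 and 6 in SR-3420, 0, 3 and 1 in TC, 2, 2 and 2 in TC with SR-3420, 3, 4 and 3 in ETO and 11, 2 and 2 in ETO with SR-3420. Groups next to each other in order of mean CPM overlapped, while in CPM both SR-3420 samples lay above both vehicle samples and all 3 TC samples below them. The count of 0 in TC replicate 1 allows up to 3 counts, or 0.323 CPM. This floor covers counting error only, and not the spread between cultures.

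Ch25h is a gene of 1 exon at chr19:34548274-34549625 on the minus strand (mm9). Its promoter was searched for the elements named here because cyclic AMP signalling runs beside lipolysis in fat cells and LXRs act through DR4 elements. The study reports, however, that SR-3420 set off lipolysis with no activation of protein kinase A, which acts in the cyclic AMP pathway. It judged this by phosphorylation of hormone-sensitive lipase. The 250 bases before each annotated start were taken from RefSeq on GRCm38.p6, whose coordinates differ from mm9, for 7 of the 9 members in 10 windows (Abcg1 and Cyp7b1 had none), and both strands were searched. The cyclic AMP response element TGACGTCA occurred in Ch25h at 61 to 54 bases before the start, and in 508 of all 32851 windows (1.55%). No member had the strict DR4, an AGGTCA repeated after 4 bases, found in 5 windows (0.0152%). A relaxed form, with GGTNA for each repeat and chosen after seeing the sequence of Abca1, occurred on the reverse strand in Abca1 at 67 to 53 bases, in the third window of Srebf1 at 182 to 168 bases, and in 204 windows (0.621%). TATAAA occurred in Ch25h, Abca1 and Mylip and in 4063 windows (12.4%). These matches are descriptions of sequence, with no measurement of binding. Capitals mark the cyclic AMP response element in Ch25h (chr19:34475149-34475398) and the relaxed DR4 in Abca1 (chr4:53159896-53160145) and Srebf1 (chr11:60210472-60210721), all on the minus strand.
Ch25h: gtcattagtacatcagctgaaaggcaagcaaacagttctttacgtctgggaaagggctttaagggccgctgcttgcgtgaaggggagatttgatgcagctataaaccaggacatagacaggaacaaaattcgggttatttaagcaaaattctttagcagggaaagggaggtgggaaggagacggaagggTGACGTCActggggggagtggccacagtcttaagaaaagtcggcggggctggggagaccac
Abca1: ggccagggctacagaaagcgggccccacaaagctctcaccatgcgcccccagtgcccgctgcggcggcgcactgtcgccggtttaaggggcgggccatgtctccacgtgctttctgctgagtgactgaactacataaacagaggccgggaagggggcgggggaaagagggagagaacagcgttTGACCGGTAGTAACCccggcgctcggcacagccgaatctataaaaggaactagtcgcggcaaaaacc
Srebf1: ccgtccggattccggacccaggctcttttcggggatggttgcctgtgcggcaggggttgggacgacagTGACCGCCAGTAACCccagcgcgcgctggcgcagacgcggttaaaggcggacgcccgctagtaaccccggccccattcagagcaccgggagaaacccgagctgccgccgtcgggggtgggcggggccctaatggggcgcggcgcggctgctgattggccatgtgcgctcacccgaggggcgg

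Of the receptors, Nr1h3 (LXRα) was lower with SR-3420 under either inhibitor. Its CPM were 117 and 72.3 in vehicle, 94.2, 129.6 and 88.0 in TC and 109.6, 86.1 and 58.7 in ETO, then 93.9 and 61.3 in SR-3420, 51.9, 47.1 and 29.8 in TC with SR-3420 and 56.2, 34.4 and 39.1 in ETO with SR-3420. All 6 samples with an inhibitor and SR-3420 lay below all 10 others, which overlapped one another. By group mean TC (104), vehicle (94.4), ETO (84.8) and SR-3420 alone (77.6) formed that overlapping set, above ETO with SR-3420 (43.2) and TC with SR-3420 (42.9). It fell by 1.27 on the log2 scale in the TC arm (SE 0.30, adjusted p = 0.00500 by edgeR QL, BH, lower in 3 of 3 samples), a call kept in each alternative run. In the ETO arm it fell by 0.97 (SE 0.30, adjusted p = 0.0304 by edgeR QL, BH, lower in 3 of 3 samples).

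The ETO-arm call of Nr1h3 was lost without ETO replicate 1 (−0.74, adjusted p = 0.118), ETO replicate 2 (−0.96, 0.0745), ETO with SR-3420 replicate 2 (−0.83, 0.127) or replicate 3 (−0.90, 0.0796), and with only the groups compared (−0.98, 0.0727), in a range of edgeR or DESeq2 adjusted p from 3.40e-05 to 0.127 over the alternatives. Without inhibitor Nr1h3 stood at −0.28 with SR-3420 and the samples overlapped (adjusted p = 0.711 by edgeR QL, BH). A GC correction, chosen after seeing the data, gave −0.48 there with adjusted p = 0.0342, and adjusted p over the alternatives reached 0.995. The response differed from that without inhibitor by −0.99 with TC (adjusted p = 0.312) and by −0.69 with ETO (adjusted p = 0.988, both by edgeR QL, BH), so the arms were not shown to differ in this test. A block on replicate number (replicate block) gave −0.96 for TC (adjusted p = 0.0417 by edgeR). Among samples given SR-3420, Nr1h3 was −0.85 with TC (adjusted p = 0.170) and −0.84 with ETO (adjusted p = 0.449, both by edgeR QL, BH), with all 3 inhibitor samples below both others in each case. The GC correction gave −0.64 with adjusted p = 0.00577 for the former, where adjusted p over the alternatives reached 0.864.

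Nr1h2 (LXRβ) showed no call in any comparison by edgeR QL, BH. Its CPM were 145 and 93.0 in vehicle, 155 and 100.1 in SR-3420, 98.8 to 146 in the 3 TC samples, 108, 101 and 66.1 in TC with SR-3420, 135, 104 and 66.3 in ETO and 117, 78.7 and 64.1 in ETO with SR-3420. Every pair of groups adjacent in order of mean overlapped, and the log2 fold change with SR-3420 was 0.10 without inhibitor, −0.32 with TC and −0.23 with ETO (adjusted p = 0.908, 0.448 and 0.638 by edgeR QL, BH). The GC correction alone made it pass in the ETO arm (−0.26, adjusted p = 0.0266, over alternatives up to 0.970) and for TC against vehicle (−0.34, adjusted p = 0.0175, up to 0.977). The replicate block made it pass for ETO with SR-3420 against SR-3420 (−0.63, adjusted p = 0.0430 by edgeR).

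Abca1, which exports cholesterol and phospholipid, was highest in vehicle. Its CPM were 280.0 and 297 in vehicle, 185 and 194 in SR-3420, 193, 186 and 208 in ETO, 117, 96.8 and 142 in ETO with SR-3420, 113, 83.2 and 95.4 in TC and 97.1, 87.3 and 90.3 in TC with SR-3420. Both vehicle samples lay above all others, ETO (mean 196) and SR-3420 (189) overlapped below them, and ETO with SR-3420 (119), TC (97.2) and TC with SR-3420 (91.6) overlapped at the bottom. TC without SR-3420 lowered it: against vehicle Abca1 fell by 1.57 (SE 0.16, adjusted p = 3.13e-05 by edgeR QL, BH, 3 of 3 samples below both vehicle samples). This call held in every alternative run, with adjusted p up to 0.00172 and the smallest size, −1.08, under the gene span correction. Against ETO, in the added comparison, TC gave −1.01 (SE 0.15, adjusted p = 3.94e-04 by edgeR QL, BH, 3 of 3 samples lower), a call also kept in each of 15 alternatives, with the smallest size, −0.48 (adjusted p = 0.0346), under the gene span correction.

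With SR-3420 alone Abca1 was −0.61 from vehicle (SE 0.18) with both samples below both vehicle samples, and missed the threshold at adjusted p = 0.0523 by edgeR QL, BH. It passed without TMM (−0.72, 0.0382), with the DESeq2 Wald test (−0.63, 0.0127), with at least 10 counts in every sample (−0.61, 0.0431), with the GC correction (−0.55, 0.0161) and with the gene span correction (−0.62, 0.0252), and adjusted p over the alternatives ran from 0.00324 to 0.265. In the ETO arm Abca1 fell by 0.72 with SR-3420 (SE 0.14, adjusted p = 0.00282 by edgeR QL, BH, lower in 3 of 3 samples), a call lost with only the groups compared (−0.74, adjusted p = 0.0515, the highest of the alternatives). In the TC arm, where it already stood low, SR-3420 gave −0.08 (SE 0.14, 95% interval −0.40 to 0.23, adjusted p = 0.676 by edgeR QL, BH) and the samples overlapped. There the gene span correction gave −0.60 (adjusted p = 0.00327), with adjusted p up to 0.991 over the alternatives.

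The TC and ETO responses of Abca1 differed by 0.64 (95% interval 0.20 to 1.08, adjusted p = 0.152 by edgeR QL, BH), so the arms were not shown to differ in this test. The GC correction gave 0.59 with adjusted p = 0.0463 and the replicate block 0.65 with adjusted p = 0.0188, in a range over alternatives up to 0.970. Relative to no inhibitor the response differed by 0.52 with TC (adjusted p = 0.262) and by −0.11 with ETO (adjusted p = 0.988, both by edgeR QL, BH). The replicate block gave 0.63 for TC (adjusted p = 0.0351 by edgeR). Among samples given SR-3420, Abca1 fell by 1.05 with TC (SE 0.16, adjusted p = 0.00316 by edgeR QL, BH, 3 of 3 samples lower), and this call was kept in every alternative run. ETO gave −0.67 there (SE 0.16, adjusted p = 0.213 by edgeR QL, BH), again with 3 of 3 samples below both others, and −0.56 without SR-3420 (adjusted p = 1.00). The former passed by the DESeq2 Wald test (−0.66, 0.0267) and with the GC correction (−0.79, 0.0189), where adjusted p over the alternatives ran from 0.0189 to 1.00.

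Abcg1, which exports cholesterol to lipoproteins, had its 3 highest samples among those without an inhibitor. Its CPM were 129 and 96.8 in vehicle and 129 and 84.2 in SR-3420, against 69.9, 77.3 and 64.7 in TC, 60.6, 57.6 and 52.7 in TC with SR-3420, 86.1, 64.6 and 56.8 in ETO and 76.4, 46.7 and 70.9 in ETO with SR-3420. Vehicle (mean 113) and SR-3420 (107) overlapped, and TC (70.6) lay below both. ETO (69.2), ETO with SR-3420 (64.7) and TC with SR-3420 (57.0) followed, each overlapping the next. SR-3420 gave −0.08 without inhibitor, −0.31 with TC and −0.10 with ETO (adjusted p = 0.896, 0.285 and 0.792 by edgeR QL, BH). Among samples given SR-3420, Abcg1 fell by 0.91 with TC (SE 0.24, adjusted p = 0.0480 by edgeR QL, BH, lower in 3 of 3 samples). That call was lost without SR-3420 replicate 1 (−0.56, adjusted p = 0.578), without TC with SR-3420 replicate 1 (−0.95, 0.0958), replicate 2 (−0.92, 0.111) or replicate 3 (−0.85, 0.159), with DESeq2's size factors (−0.89, 0.0551), with only the groups compared (−0.91, 0.120) and with the gene span correction (−0.94, 0.0748), in a range from 0.00609 to 0.578. With ETO in place of TC it was −0.72 (adjusted p = 0.374 by edgeR QL, BH), with 3 of 3 samples lower.

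Against vehicle, Abcg1 was −0.68 in TC (SE 0.24, adjusted p = 0.0889) and −0.71 in ETO (SE 0.24, adjusted p = 1.00, both by edgeR QL, BH), each with 3 of 3 samples below both vehicle samples and neither called. The TC value passed without TMM (−0.75, 0.0245), with only the groups compared (−0.73, 0.0251) and with the GC correction (−0.81, 0.00195), but the gene span correction gave −0.44 with adjusted p = 0.502, the highest of its alternatives.

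Mylip, whose protein marks lipoprotein receptors for degradation, was lower with SR-3420 in all 3 arms. Its CPM were 56.5 and 46.4 in vehicle, 69.4, 76.2 and 67.9 in TC and 43.1, 40.0 and 37.0 in ETO, against 37.0 and 24.1 in SR-3420, 27.0, 25.6 and 23.5 in TC with SR-3420 and 26.1, 20.2 and 23.4 in ETO with SR-3420. TC (mean 71.2) stood above vehicle (51.5) and vehicle above ETO (40.0) without overlap, and the SR-3420 groups (30.6, 25.4 and 23.2) overlapped each other below, the highest SR-3420 sample being level with the lowest ETO sample. It fell by 1.49 in the TC arm (SE 0.16, adjusted p = 2.36e-05) and by 0.78 in the ETO arm (SE 0.16, adjusted p = 0.00327, both by edgeR QL, BH), lower in 3 of 3 samples of each, and both calls were kept in every refit, although the ETO-arm size lies under a log2 fold change of 1. Without inhibitor it fell by 0.75 (SE 0.20, adjusted p = 0.0345 by edgeR QL, BH), lower in 2 of 2 samples. That call was lost without vehicle replicate 2 (−0.60, adjusted p = 0.197), vehicle replicate 3 (−0.88, 0.0728) or SR-3420 replicate 3 (−0.47, 0.195), with only the groups compared (−0.78, 0.297) and with the gene span correction (−0.71, 0.0534), in a range from 0.00277 to 0.297.

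With the inhibitors alone Mylip stood on opposite sides of vehicle, by 0.47 in TC (SE 0.18, adjusted p = 0.118) and by −0.36 in ETO (SE 0.18, adjusted p = 1.00, both by edgeR QL, BH), and neither was called. In the comparison of TC with ETO, which was added because this pattern had been seen and so is no independent test of it, TC was higher by 0.83 (SE 0.16, adjusted p = 0.00300 by edgeR QL, BH, 3 of 3 samples higher), a call each of 15 refits kept. The TC and ETO responses to SR-3420 differed by −0.70 (95% interval −1.19 to −0.22, adjusted p = 0.153 by edgeR QL, BH), and those with TC and without inhibitor by −0.73 (adjusted p = 0.150 by edgeR QL, BH), so neither difference passed in this test. With the replicate block both passed, at −0.71 and −0.67 (adjusted p = 0.0220 and 0.0440 by edgeR). With ETO the response was within −0.03 of that without inhibitor (adjusted p = 0.991 by edgeR QL, BH).

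Srebf1, which drives fatty acid synthesis genes, passed in no comparison. Its CPM were 2037 and 1287 in vehicle, 1633 and 1027 in SR-3420, 1254, 1611 and 1146 in TC, 1081, 974 and 669.7 in TC with SR-3420, 1425, 1169 and 756 in ETO and 1208, 653 and 758 in ETO with SR-3420. Groups next to each other in order of mean overlapped, but all 3 samples of TC with SR-3420 lay below all 3 of TC. With SR-3420 it stood at −0.32 without inhibitor, −0.56 with TC and −0.36 with ETO (adjusted p = 0.678, 0.169 and 0.433 by edgeR QL, BH). The GC correction took all 3 past the threshold, at −0.54 (adjusted p = 0.0192), −0.30 (0.0469) and −0.35 (0.0291), and TC against vehicle as well, at −0.55 (0.00715), where adjusted p over the alternatives of those 4 values reached 0.980, 0.429, 0.807 and 0.951.

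**Figure D2:**
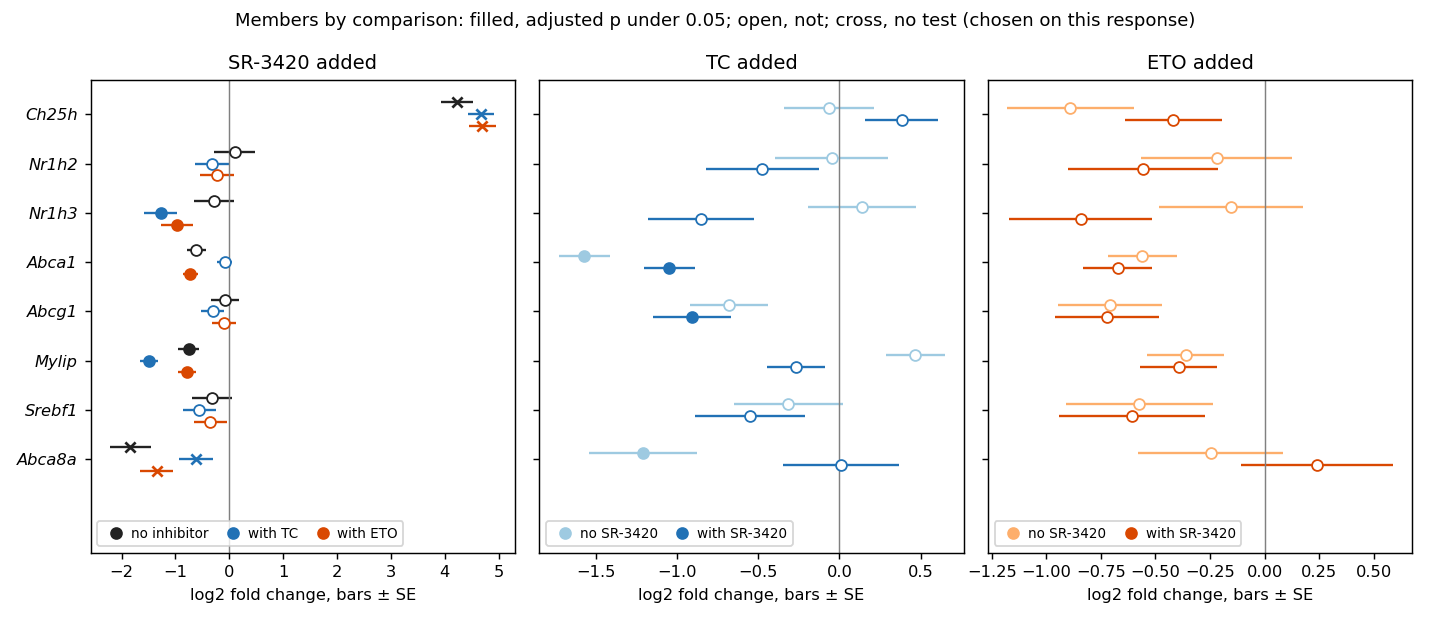
Log2 fold changes (bars, SE) of the 8 tested genes when SR-3420, TC or ETO was added, with filled points for an adjusted p under 0.05, open points otherwise and crosses where no test was made. Ch25h lies between 4.23 and 4.70 when SR-3420 was added, and Abca1 is lowest when TC was added, at −1.57.

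Abca8a, a transporter of the ABCA5 to ABCA10 subgroup whose human counterpart moves cholesterol and taurocholate, was highest in vehicle and ETO. Its CPM were 11.8 and 20.3 in vehicle and 10.6, 12.4 and 17.6 in ETO, against 6.67, 6.70 and 7.43 in TC, 3.60 and 5.40 in SR-3420, 3.71, 4.47 and 5.44 in TC with SR-3420 and 3.89, 4.16 and 7.89 in ETO with SR-3420, from 53 to 220 counts per sample. Vehicle (mean 16.1) and ETO (13.5) overlapped above TC (6.93), and TC overlapped ETO with SR-3420 (5.32), which in turn overlapped TC with SR-3420 (4.54) and SR-3420 (4.50). As a description, the log2 fold change with SR-3420 was −1.83 (SE 0.38) without inhibitor, −0.62 (SE 0.32) with TC and −1.35 (SE 0.31) with ETO, with every SR-3420 sample below every sample of its own comparison group. Without vehicle replicate 3 the first was −1.39, and without ETO with SR-3420 replicate 3 the last was −1.74. The response differed from that without inhibitor by 1.22 with TC and by 0.49 with ETO, also as a description, and these became 0.78 and 0.05 without vehicle replicate 3, 0.81 for TC with the GC correction, and 0.09 for ETO without ETO with SR-3420 replicate 3.

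In TC without SR-3420 Abca8a stood at −1.21 from vehicle (SE 0.33, adjusted p = 0.0312 by edgeR QL, BH, 3 of 3 samples below both vehicle samples). The samples entered the response by which Abca8a was chosen, so no p given for it is free of that choice. The call was lost without vehicle replicate 3 (−0.77, adjusted p = 0.372), TC replicate 1 (−1.18, 0.0888), TC replicate 2 (−1.18, 0.0931) or TC replicate 3 (−1.26, 0.0730) and with the gene span correction (−0.89, 0.0769), in a range from 2.58e-04 to 0.372. TC against ETO, added after the data were seen, gave −0.96 (SE 0.31, adjusted p = 0.0466 by edgeR QL, BH, 3 of 3 samples lower). It was lost without TC replicate 1 (adjusted p = 0.122), replicate 2 (0.135) or replicate 3 (0.0979), without ETO replicate 2 (0.0809) or replicate 3 (0.187), and with the gene span correction (−0.60, 0.182), in a range from 7.02e-04 to 0.187. Among samples given SR-3420, TC gave 0.01 (95% interval −0.76 to 0.77, adjusted p = 0.992) and ETO 0.24 (adjusted p = 0.719, both by edgeR QL, BH). As a description, the TC and ETO responses differed by 0.73. Of Abca5, Abca6, Abca8b and Abca9, the rest of its subgroup in the list, 1 gene (Abca5) had enough counts to test, and with SR-3420 it stood at −0.41 without inhibitor, 0.78 with TC and 0.07 with ETO, none of them called.

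The members called were counted for each comparison, with Ch25h and Abca8a left out wherever SR-3420 was set against no SR-3420. Counts out of 8 include both, although samples of those comparisons entered the responses by which they were chosen. Against vehicle, SR-3420 gave 0 of 6 tested members higher and 1 lower by edgeR QL, BH, where 4.75% of all genes tested were called higher and 2.79% lower, and 2 of the 6 had an unadjusted p under 0.05 and DESeq2 called 2. In the TC arm 0 of 6 were higher and 2 lower (all genes: 17.3% higher, 19.7% lower), with 2 at an unadjusted p under 0.05 and 2 by DESeq2. In the ETO arm 0 of 6 were higher and 3 lower (all genes: 12.5% higher, 12.8% lower), with 3 and 3 by those counts. TC against vehicle gave 0 of 8 higher and 2 lower (all genes: 4.77% higher, 6.94% lower), with 4 at an unadjusted p under 0.05 and 2 by DESeq2. Without Ch25h and Abca8a it was 1 of 6 lower, Abca1.

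ETO against vehicle called 0 of 8 tested members in either direction by edgeR QL, BH, where 0.0156% of all genes were called higher and 0.00782% lower, 3 members had an unadjusted p under 0.05 and DESeq2 called 0. ETO with SR-3420 against SR-3420 called 0 of 8 (all genes: 0% higher, 0.00782% lower), with 4 members at an unadjusted p under 0.05 and Abca1 alone by DESeq2. With the replicate block that comparison called 5 members, and 1838 genes in place of 1. For TC with SR-3420 against SR-3420 the count was 0 of 8 higher and 2 lower (all genes: 1.02% higher, 3.55% lower), with 3 at an unadjusted p under 0.05 and 2 by DESeq2. TC against ETO, added after its pattern was seen, had 2 of 8 higher and 2 lower (all genes: 8.08% higher, 8.80% lower), or 1 of 6 higher and 1 lower without Ch25h and Abca8a. For the differences between responses, edgeR called 0 of 6 members for TC versus none (all genes: 2.51% in either direction), 0 of 6 for ETO versus none (all genes: 0%) and 0 of 6 for TC versus ETO (all genes: 2.29%). At an unadjusted p under 0.05 those 3 comparisons had 2, 0 and 2 members and 2130, 307 and 1596 genes in all, and DESeq2 called 0, 0 and 0 members and 832, 9 and 682 genes. With the replicate block edgeR called 3 members for TC versus none and 2 for TC versus ETO, among 1669 and 1055 genes.

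Fold changes of TC against vehicle varied with the genomic span of the gene. In 5 equal bins from the shortest to the longest span, the median log2 fold change of all tested genes was 0.33, 0.23, 0.11, −0.09 and −0.45, and 0.547% of the genes of the shortest bin but 27.6% of those of the longest were called lower. For ETO against vehicle the same medians were −0.04, −0.01, 0.01, 0.04 and 0.04. In the TC arm with SR-3420 they ran the other way, at −0.40, −0.22, −0.10, 0.17 and 0.57, with 33.3% of the shortest bin called lower and 43.8% of the longest called higher. The response difference TC versus none ran from −0.44 in the shortest bin to 0.51 in the longest. With the gene span correction Nr1h3 and Mylip remained lower in the TC arm, at −0.99 (adjusted p = 0.0138) and −1.34 (adjusted p = 9.76e-05, both by edgeR QL, BH). Abca1 spans 129 kb (chr4:53043661-53172767, 50 exons, mm9) and Abca8a 70.3 kb (chr11:109886948-109957251), both in the longest bin, and Abcg1 spans 60.3 kb. Ch25h at 1.35 kb and Nr1h2 at 4.35 kb lie in the shortest bin, Nr1h3 at 11.1 kb in the next, and Srebf1 at 21.5 kb and Mylip at 22.2 kb in the middle one. Measured against genes of like span, by the correction chosen after seeing the data, Abca1 remained lower at −1.08 (adjusted p = 5.14e-04 by edgeR QL, BH), while Abca8a at −0.89 and Abcg1 at −0.44 were not called. Why span and fold change go together in TC was not tested.

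**Figure D3:**
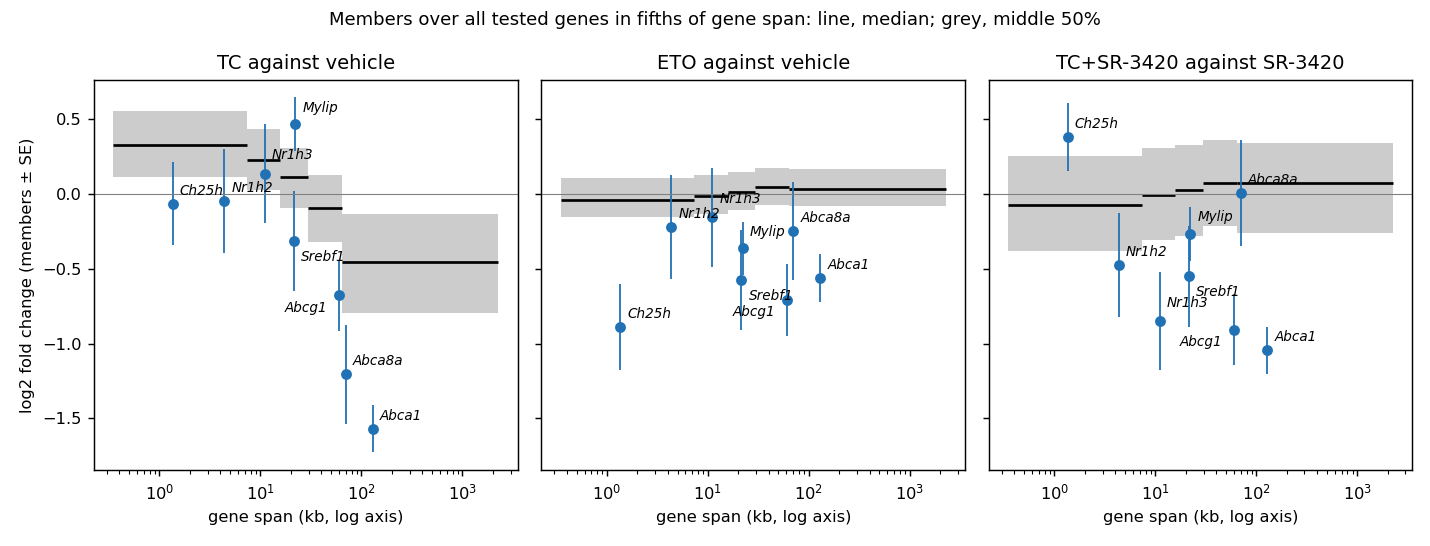
Log2 fold change (bars, SE) of the 8 tested genes against genomic span in kilobases on a log axis, over the median (line) and middle 50% (grey) of all tested genes in 5 equal span bins, for 3 comparisons with an inhibitor added. In TC against vehicle the median runs from 0.33 in the shortest bin to −0.45 in the longest, where Abca1 lies lower still at −1.57.

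Profiles nearest to those of Ch25h, Abca1 and Abca8a were found by the mean absolute difference in centred log2 CPM over the 16 samples. Around Ch25h, whose own mean deviation was 2.24, they were Areg (0.52), Has1 (0.60), Hmx3 (0.65), Lif (0.65) and Gm13889 (0.72), which encode, among others, the growth factor amphiregulin, hyaluronan synthase 1 and a cytokine. By group mean Hmx3 had 0 CPM in vehicle and ETO and at most 2.00, in TC with SR-3420. Areg had 0.211 to 0.549 CPM in the groups without SR-3420, so both lay near the floor there. Has1, like Ch25h, was higher in every SR-3420 group, at 22.7, 35.7 and 25.4 CPM with SR-3420 alone, with TC and with ETO against 2.29, 3.25 and 1.92 in the matching groups without it. Abca1 (own deviation 0.54) lay nearest to Epb4.1l4b (0.13), Pparg (0.17), Atp2b4 (0.17), Ctdspl (0.17) and Acaca (0.17), of which Pparg fell from 329 in vehicle to 118 in TC. These neighbours of Abca1 span 81.4, 129, 51.1, 118 and 206 kb. Abca8a (own deviation 0.63) lay nearest to Gpr155 (0.17), Strip2 (0.19), Abcd2 (0.19), Hykk (0.21) and Igf1 (0.21).

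Other genes of LXR biology were read beside the members in fixed lists, in which counts are calls by edgeR QL, BH. Among 11 tested LXR targets of sterol and lipid transport, SR-3420 gave 1 higher and 1 lower without inhibitor, 2 and 7 in the TC arm and 1 and 4 in the ETO arm (all genes: 4.75% and 2.79%, 17.3% and 19.7%, and 12.5% and 12.8%). Without inhibitor Mertk lost its call without vehicle replicate 2 or 3 or SR-3420 replicate 3 (adjusted p up to 0.0923), and Smpdl3a without any of the 4 libraries (adjusted p up to 0.197). In the ETO arm Apoe and Apoc1 both lost theirs without ETO with SR-3420 replicate 2 (adjusted p = 0.0705 and 0.0700) and Apoe without ETO replicate 1 (0.0582), and in the TC arm Apoc2 without 4 of 6 libraries (up to 0.131). Apoe fell by 2.04 in the TC arm (SE 0.36, adjusted p = 6.96e-04, lower in 3 of 3 samples) and Smpdl3a fell by 1.11 in the ETO arm (SE 0.20, adjusted p = 0.00126, lower in 3 of 3 samples), where Mertk was higher by 1.03 (adjusted p = 4.42e-04). Apoe, Apoc1 and Apoc2 lie in the shortest span bin, of which 33.3% were called lower in the TC arm. Of 8 lipogenic LXR targets 3, 6 and 3 were lower in the 3 arms (all genes: 2.79%, 19.7% and 12.8%), but without inhibitor Acaca and Scd2 lost their calls without any of the 4 libraries (adjusted p up to 0.149 and 0.263), and in the TC arm Fasn without 4 of 6 (up to 0.134). Pnpla3 led them, falling from 257 and 209 CPM in vehicle to 106 and 79.0 in SR-3420 (−1.34, adjusted p = 0.00416, 2 of 2 samples lower), a call lost with only the groups compared (0.0988). In TC against vehicle, where Abca1 fell, 0 of the 11 transport targets were lower and 1 was higher (Npc2, a call lost without 3 of 5 libraries). Of the 8 lipogenic targets 0 were higher and 1 lower (Acaca, in the longest span bin). All genes had 4.77% higher and 6.94% lower there. The median log2 fold changes were 0.22 and 0.21 (all genes: 0.07).

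Of 6 tested enzymes and sensors of oxysterols other than Ch25h and Cyp7b1, 1, 2 and 4 were lower in the 3 arms (all genes: 2.79%, 19.7% and 12.8%). Sult2b1 and Hsd11b1 each lost their ETO-arm call without 5 of 6 libraries (adjusted p up to 0.143 and 0.158), both of them without ETO replicate 1. Cyp27a1, the mitochondrial enzyme that makes 27-hydroxycholesterol, fell by 1.38 in the TC arm (adjusted p = 3.31e-05) and by 1.12 in the ETO arm (adjusted p = 2.64e-04, lower in 3 of 3 samples of each). Without inhibitor its value of −0.80 (adjusted p = 0.0235) lost its call without any of vehicle replicates 2 and 3 or SR-3420 replicates 1 and 3 (adjusted p up to 0.155). Of the MYLIP substrates and E2 partners (6 tested), Vldlr was the only call in each arm (all genes: 4.75%, 17.3% and 12.5% higher). It moved opposite to Mylip. Its CPM were 37.2 and 31.7 in vehicle and 101 and 93.9 in SR-3420, a 2.82-fold rise (adjusted p = 2.10e-05, 2 of 2 samples). It rose by 1.48 with TC (adjusted p = 9.70e-07) and by 1.26 with ETO (adjusted p = 4.00e-06) on the log2 scale, in 3 of 3 samples of each. The call without inhibitor had adjusted p = 0.0627 with only the groups compared.

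Among 14 LXR partners and coregulators 1, 1 and 4 were lower in the 3 arms (all genes: 2.79%, 19.7% and 12.8%) and 5 higher in the TC arm (all genes: 17.3%). Of those 5, Tbl1x, Ncoa1, Ncoa2 and Ncoa3 lie in the longest span bin, of which 43.8% were called higher, and with the gene span correction Ncoa1, Ncoa2 and Ncoa3 were not called there (adjusted p = 0.599, 0.314 and 0.132). In TC against vehicle 7 were lower, where 6.94% of all genes were, among them Ncoa2 (−2.13, adjusted p = 2.43e-07) and Rxra (−1.55, adjusted p = 7.73e-04), with 3 of 3 samples lower. Ncoa2 spans 235 kb and Rxra 86.1 kb, both in the longest span bin, of which 27.6% were called lower. With TC and SR-3420 against SR-3420, 5 were lower (all genes: 3.55%). Of these Nrip1 at −1.18 (adjusted p = 0.00242, 3 of 3 samples lower) kept its call without each library. Rxrg and Ncoa1 lost theirs without SR-3420 replicate 1, and Rxra without 4 of 5 libraries, that one among them (adjusted p up to 0.508). Ncoa1 also lost its ETO-arm call without 3 of 6 libraries (adjusted p up to 0.0834). Of 7 genes of the SREBP2 axis, 1, 2 and 1 were lower in the 3 arms (all genes: 2.79%, 19.7% and 12.8%), among them Sqle by −0.60 with TC (adjusted p = 3.57e-04, 3 of 3 samples), whereas Insig1 lost its TC-arm call without 5 of 6 libraries (adjusted p up to 0.117). Of 5 tested other ABCA and ABCG transporters, Abca3 fell by 1.01 in the ETO arm (adjusted p = 0.00785, 3 of 3 samples, and 0.0569 with only the groups compared). It was the only call in that arm (all genes: 12.5% higher, 12.8% lower), and the TC arm had 1 higher and 2 lower (all genes: 17.3% and 19.7%). There Abca2 and Abca3 both lost their calls without TC replicate 2 or TC with SR-3420 replicate 3 (adjusted p up to 0.104 and 0.0603), and Abca4 without TC replicate 3 (0.0726). Ch25h is itself induced by interferon in macrophages. Of 15 tested interferon-stimulated genes 3, 5 and 4 were lower in the 3 arms (all genes: 2.79%, 19.7% and 12.8%) and 1 higher in the TC arm (all genes: 17.3%). With ETO, Irf9 and Stat2 lost their calls without 3 of 6 libraries each (adjusted p up to 0.144 and 0.0845) and Ddx58 without 2 (up to 0.0580). In the TC arm Ifih1 lost its call without 3 of 6 (up to 0.104) and Usp18 without 1 (0.0520).

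**Figure D4:**
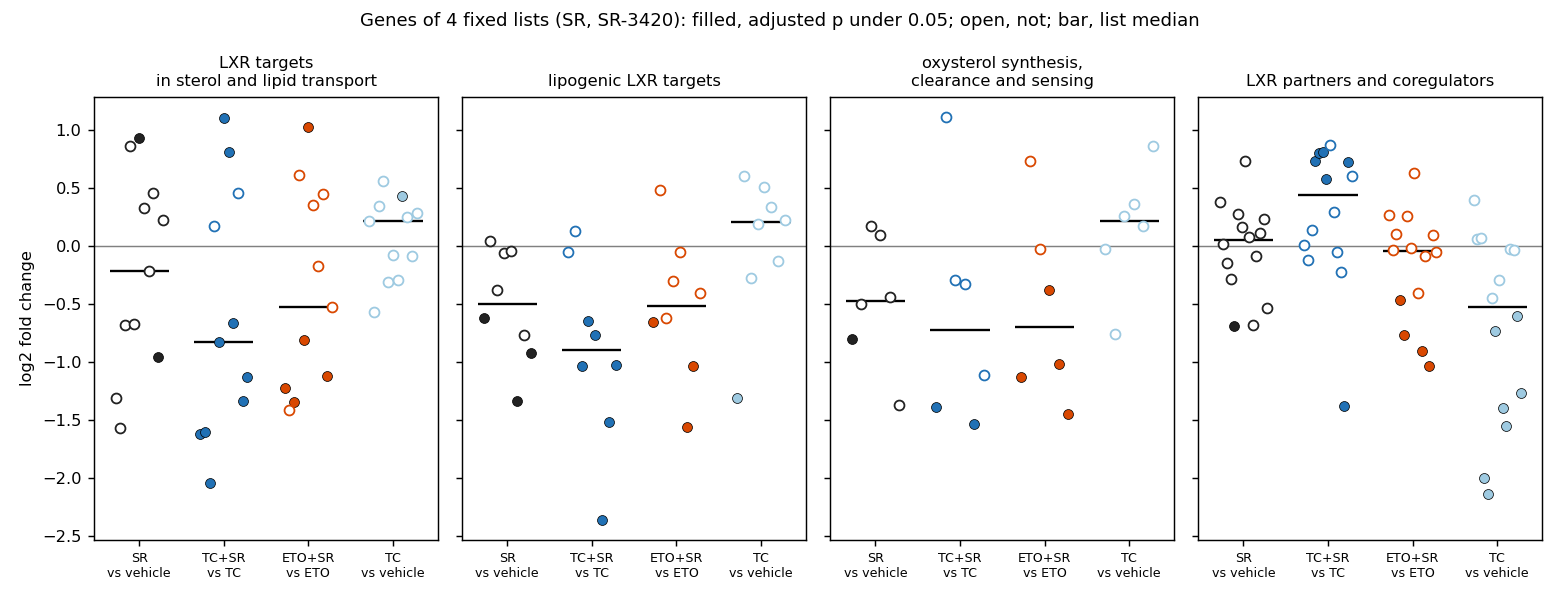
Log2 fold changes of the tested genes of 4 fixed lists in the 3 arms with SR-3420 and in TC against vehicle, with filled points for an adjusted p under 0.05, open points otherwise and bars at the list medians. The lipogenic LXR targets have a median of −0.89 in the TC arm with SR-3420 and 0.21 in TC against vehicle.

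The markers of cell type were compared in the same way. Of 8 adipocyte markers 2, 6 and 7 were lower in the 3 arms (all genes: 2.79%, 19.7% and 12.8%). The 2 without inhibitor, Pparg and Retn, lost their calls without any of the 4 libraries (adjusted p up to 0.242 and 0.277). With the inhibitors the calls included Adipoq by −1.68 with TC (adjusted p = 6.23e-05) and −1.24 with ETO (adjusted p = 9.22e-04, 3 of 3 samples lower in each, edgeR QL, BH). Cfd and Retn, also called lower with both inhibitors, lie in the shortest span bin, of which 33.3% were called lower with TC and 14.8% with ETO. Cfd lost its ETO-arm call without 4 of 6 libraries (adjusted p up to 0.147) and Cidec without 2 of 6 (up to 0.0677), and both with only the groups compared (0.101 and 0.0699). The falls of Mylip and Nr1h3 in those arms, and of Abca1 in the ETO arm, thus stood beside falls of fat cell markers. In TC against vehicle, where Abca1 fell, Pparg of the adipocyte markers and Ppargc1a and Prdm16 of the brown ones were lower (all genes: 6.94%). All 3 lie in the longest span bin, and Ppargc1a lost its call without 4 of 5 libraries (adjusted p up to 0.114). The median log2 fold change in that comparison was 0.16 over the adipocyte markers and 0.41 over the brown ones (all genes: 0.07), with 0 of either list called higher. Abca1 and Abcg1 fell for TC with SR-3420 against SR-3420, where 4 of 8 adipocyte markers and 2 of 7 tested brown markers were lower (all genes: 3.55%). All 6 of these marker calls were lost without SR-3420 replicate 1. The part of such markers in the falls was not tested. Of 7 tested brown markers 1, 3 and 1 were lower in the 3 arms with SR-3420 (all genes: 2.79%, 19.7% and 12.8%) and 1 was higher in the TC arm, with Cox8b at −1.99 in the TC arm and −1.25 in the ETO arm (adjusted p = 7.01e-06 and 2.45e-04, 3 of 3 samples lower). The median over the 7 was 0.47 without inhibitor, −0.43 in the TC arm and 0.12 in the ETO arm (all genes: −0.00, 0.02 and 0.01). The 3 lower in the TC arm, Cox8b, Elovl3 and Cox7a1, lie in the shortest span bin, of which 33.3% were called lower there. In the TC arm Elovl3 lost its call without any of the 6 libraries (adjusted p up to 0.130), Cox7a1 without TC replicate 2 or TC with SR-3420 replicate 1 (up to 0.116) and Prdm16, the higher one, without 4 of 6 (up to 0.159). Of 3 tested macrophage markers, Cd68 was higher in TC than in vehicle by 1.92 (adjusted p = 3.66e-04, 3 of 3 samples). It was the only one called there (all genes: 4.77% higher, 6.94% lower). With SR-3420 it was lower by −1.29 in the TC arm (adjusted p = 6.51e-04, 3 of 3 samples, all genes: 19.7% lower). Cd14 was lower in the ETO arm by −0.71 (adjusted p = 0.0163, 3 of 3 samples, all genes: 12.8% lower). That call was lost without ETO replicate 1 or 2 or ETO with SR-3420 replicate 2 or 3 (up to 0.0736), and with only the groups compared (0.107). Kdr, the 1 tested endothelial marker, was higher in the ETO arm by 1.28 (adjusted p = 0.00681) and in the TC arm by 0.96 (adjusted p = 0.0246), in 3 of 3 samples of each. The latter call was lost without TC replicate 1 or 2 or TC with SR-3420 replicate 1 or 2 (up to 0.106). Of 7 preadipocyte and fibroblast markers 2 were higher in the TC arm and 4 in the ETO arm (all genes: 17.3% and 12.5%), among them Cd34 by 1.27 with TC (adjusted p = 0.00284, 3 of 3 samples) and Col3a1 by 0.53 with ETO (adjusted p = 0.0107, 3 of 3 samples). The other 3 in the ETO arm, Pdgfra, Ly6a and Col1a1, all lost their calls without ETO with SR-3420 replicate 1 (adjusted p = 0.0760, 0.0760 and 0.0646). In that arm Pdgfra and Ly6a lost theirs without 4 of 6 libraries each (up to 0.0944 and 0.107) and Col1a1 without 2 of 6. Pdgfra lost its TC-arm call without 4 of 6 libraries (up to 0.165). Without inhibitor, every call among the lists and markers other than Vldlr and Pnpla3 was lost without at least 2 of the 4 libraries in turn.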

How the data were processed

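The counts per gene were deposited by the authors as a table of raw counts for 16 samples, made per the labels by aligning reads to mm9 with STAR 2.4.2a, keeping 1 read per position and length with HOMER and counting genes with iRNA-seq. Strandedness is not stated. From these counts, CPM and RPKM were computed with TMM scaling, and edgeR 4.0.16 in R 4.3.3 fitted 1 quasi-likelihood model over the 6 groups to the 12786 of 20295 genes that passed filterByExpr. Benjamini-Hochberg adjustment covered all tested genes, with a call at an adjusted p under 0.05. The code was tested on simulated counts, and figures were drawn with Python 3.11.15 and matplotlib 3.10.9. The members and the lists were chosen with earlier results of these data known, so counts on them are descriptions.

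The named genes are the 9 members, at most 4 called genes with the largest absolute log2 fold change per list and comparison, the 5 profiles nearest to Ch25h, Abca1 and Abca8a, and the most abundant gene of each marker list with its genes near 0. Lists were LXR targets in sterol and lipid transport, lipogenic LXR targets, oxysterol synthesis, clearance and sensing, LXR partners and coregulators, the SREBP2 axis, MYLIP substrates and E2 partners, the ABCA5 to ABCA10 subgroup, other ABCA and ABCG transporters, interferon-stimulated genes, and markers of adipocytes, brown adipocytes, macrophages, endothelium and preadipocytes. Alternatives were DESeq2's size factors, library totals without TMM, the DESeq2 1.42.0 Wald test, no low-count filter, at least 10 counts in every sample, a replicate block, only the groups compared, a log2 fold change of at least 1 as well, and each sample left out. Corrections for GC content (known for 92.9% of genes) and gene span, and TC against ETO, were added after seeing the data.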

Additional observations from a re-analysis of the deposited data

Results flagged for a closer look

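The genes here stood out because a test of the difference between their responses to SR-3420 passed (edgeR's quasi-likelihood test, Benjamini-Hochberg adjusted). Between the TC arm and no inhibitor the response of Ncoa2 differed by 1.49 (adjusted p = 0.00144), that of Rxrg by −1.49 (0.0406), that of Ncoa1 by 1.02 (0.0212) and that of Cd68 by −1.98 (0.0139). Between the TC and ETO arms Ncoa2 differed by 1.57 (2.97e-04), Ncoa1 by 1.20 (0.00558), Tbl1x by 0.63 (0.0384) and Cd68 by −1.44 (0.0329).

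Leaving out 1 library at a time, Ncoa2 kept both calls and Ncoa1 that between TC and ETO. Against no inhibitor, Rxrg lost its call without 9 of 10 libraries, all but SR-3420 replicate 3 (adjusted p up to 0.209), and Ncoa1 without 7 of 10, all but TC replicate 1 and TC with SR-3420 replicates 2 and 3 (up to 0.111). Cd68 lost it without vehicle replicate 3 or SR-3420 replicate 1 (up to 0.0960). Between TC and ETO, Tbl1x lost its call without 10 of 12, all but TC with SR-3420 replicate 2 and ETO with SR-3420 replicate 2 (up to 0.115), and Cd68 without 11 of 12, all but ETO with SR-3420 replicate 3 (up to 0.0938). The gene span correction, chosen after seeing the data, gave Ncoa1 0.41 (0.443) and Rxrg −1.59 (0.130) against no inhibitor, and Ncoa1 0.71 (0.0947), Tbl1x 0.19 (0.999) and Cd68 −1.06 (0.0812) between TC and ETO, none of them called. Without a low-count filter Rxrg (0.0641), Tbl1x (0.0547) and, just past the threshold, Cd68 between TC and ETO lost their calls, as did Tbl1x with only the groups compared (0.0607) and with the GC correction (0.247). Over all tested genes of the longest span bin the median difference against no inhibitor was 0.51 and between TC and ETO 0.42. Ncoa1 spans 237 kb, Ncoa2 235 kb, Tbl1x 149 kb, Rxrg 41.3 kb and Cd68 1.96 kb.

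Mylip stood out because all 3 TC samples lay above, and all 3 ETO samples below, both vehicle samples. TC against ETO was added because this had been seen, on the same samples, so its p is no independent test. The difference was 0.83 (adjusted p = 0.00300 by edgeR's quasi-likelihood test, Benjamini-Hochberg adjusted, 3 of 3 samples higher).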

How the results depend on the processing

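Of 1384 member fold changes under an alternative, 1300 kept their direction and side of the threshold (or, with no test, moved by less than the replicate spread), 41 lost a call, 35 gained one and 8 untested values moved further. None that was called turned direction. All 45 comparisons of levels and all 3 sets of nearest profiles were kept, list genes kept 1683 of 2034 values and lost a call in 351, and 194 of 703 list counts moved by more than 1.5 times. The number of members called stayed within that margin in 144 of 184 cases. Causes were not tested.

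With SR-3420 against vehicle, 1 member was called, but 2 without TMM, 2 by the DESeq2 Wald test, 2 with at least 10 counts in every sample, 0 with only the groups compared, 4 with the GC correction and 0 when a log2 fold change of at least 1 was also required. In the ETO arm 3 became 1 with only the groups compared, 5 with the GC correction and 0 with that size. For TC against vehicle 2 became 5 with the GC correction and 1 with the gene span correction. For TC with SR-3420 against SR-3420 2 became 1 with DESeq2's size factors, 1 with only the groups compared, 1 with the span correction and 1 with that size. ETO with SR-3420 against SR-3420 went from 0 to 1 by DESeq2 and 1 with the GC correction, and the difference between the TC and ETO responses from 0 to 1 with the GC correction. Both corrections were chosen after seeing the data.

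Leaving out 1 sample gave 0 to 1 members with SR-3420 against vehicle (0 without vehicle replicate 2, vehicle replicate 3 or SR-3420 replicate 3), 2 to 2 in the TC arm, 2 to 3 in the ETO arm, 1 to 2 for TC against vehicle (1 without vehicle replicate 3 or any TC replicate), 1 to 2 for TC with SR-3420 against SR-3420, and 0 to 0 for ETO against vehicle, ETO with SR-3420 against SR-3420 and the response differences. For TC against ETO, Abca1 and Mylip kept their calls in 6 of 6 cases, and Ch25h and Abca8a each lost theirs in 5. A group left with 1 sample was taken to vary like the others.

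The replicate block gave 2 members with SR-3420 against vehicle, where Abca1 was −0.71 (adjusted p = 0.00324 by edgeR), and 4 for TC against vehicle (adding Abcg1 and Mylip). For ETO with SR-3420 against SR-3420 it gave 5, which were Nr1h2, Nr1h3, Abca1, Abcg1 and Srebf1. For response differences it gave 3 for TC versus none (Nr1h3 −0.96, 0.0417, Abca1 0.63, 0.0351 and Mylip −0.67, 0.0440) and 2 for TC versus ETO (Abca1 0.65, 0.0188 and Mylip −0.71, 0.0220). It also called Srebf1 in the TC arm (−0.59, 0.0113) and Nr1h3 for TC with SR-3420 against SR-3420 (−0.91, 0.00712). Of 35 pairs of samples with the same number, 27 had correlated deviations over 0.1 (mean r 0.41, lowest −0.29; 71 other pairs, mean −0.20), and 10 of 16 samples correlated best with their own number. The numbers were not taken as a pairing.

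Genes called among all tested moved by more than 1.5 times as follows. Ranges with 1 sample left out run from the lowest to the highest count and may include counts that moved less. SR-3420 against vehicle went from 964 to 1585 by DESeq2, 2438 with the block, 46 with only the groups compared, 2929 with GC, 430 with the size minimum and 306 to 504 with 1 sample left out. The TC arm went from 4722 to 7185 with the block and 1893 with the size minimum. The ETO arm went from 3234 to 5776 (block), 1205 (groups compared), 5819 (GC), 1136 (size) and 1989 (without ETO with SR-3420 replicate 2). TC against vehicle went from 1497 to 3072 (block), 3195 (GC), 802 (span), 705 (size), 840 (without vehicle replicate 2) and 702 (without vehicle replicate 3). ETO against vehicle went from 3 to 17 (DESeq2), 6 (block), 0 (groups compared), 19 (GC), 6 (span) and 0 (without vehicle replicate 3). TC with SR-3420 against SR-3420 went from 585 to 1230 (DESeq2), 3008 (block), 78 (groups compared), 2234 (GC), 230 (size) and 54 to 401 with 1 sample left out, lowest without SR-3420 replicate 1. ETO with SR-3420 against SR-3420 went from 1 to 93 (DESeq2), 1838 (block), 101 (GC) and 12 (without ETO with SR-3420 replicate 3). Of the response differences, TC versus none went from 321 to 832 (DESeq2), 163 (no filter), 1669 (block), 1456 (GC), 71 (span) and 53 to 179 (1 sample left out), ETO versus none from 0 to 9 (DESeq2) and 3 (block), and TC versus ETO from 293 to 682 (DESeq2), 1055 (block), 1127 (GC), 42 (span), 178 (size) and 145 to 262 (1 sample left out). TC against ETO went from 2158 to 4994 (block), 3731 (GC), 1041 (span), 800 (size) and 1247 to 2139 (1 sample left out).

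Without TMM the median log2 fold change of all genes with SR-3420 against vehicle was −0.12 in place of −0.00, and higher calls were 44.9% of calls in place of 63.0%. That share was 39.6% in place of 49.4% in the ETO arm and 30.6% in place of 47.9% for TC against ETO. Depth limits Cyp7b1 (0 to 11 counts) and Abca8a (53 to 220 counts).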
